A study of Mus musculus with 6 samples.

Results

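The genes described here are 8 markers of hippocampal field CA2, namely Pcp4, Rgs14, Amigo2, Necab2, Ptpn5, Map3k15, Stard5 and Cacng5. They were taken by gene symbol from 24346 symbols listed for each of 6 hippocampal libraries, and all 8 were found. Pcp4 was chosen by its lower level in TonEBP+/- libraries, and the other 7 were listed as CA2 genes with earlier results of the same libraries in view, among them the lower level of Cacng5. The question was whether the other CA2 markers follow Pcp4. The libraries were made from total RNA of the hippocampus of 12-month-old C57BL/6 mice, 3 wild type (WT 1 to WT 3) and 3 labelled TonEBP+/- (HET 1 to HET 3). TonEBP, encoded by Nfat5, is the transcription factor that switches on osmoprotective genes in hypertonic medium. The TonEBP+/- animals carry 1 disrupted allele in the germ line, the wild-type animals are littermates from crosses of such heterozygotes, and both were backcrossed to C57BL/6J. The labels name no treatment and give no position for the disruption. They give 1 number per mouse and no more on how samples were kept apart, so p-values measure the spread between these samples.

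CA2 is a narrow band of pyramidal neurons between CA3 and CA1. It is known for synapses that resist long-term potentiation, for strong calcium buffering and extrusion, and for its part in social memory. Several of its markers encode proteins that limit calcium, G-protein or phosphatase-sensitive signalling: Pcp4 binds calmodulin, Rgs14 acts on G proteins and the Ras to ERK cascade, and Ptpn5 removes phosphate from ERK and glutamate receptor subunits. None of these genes is limited to CA2. Pcp4 is also expressed in thalamus, striatum, deep cortex and Purkinje cells, and Ptpn5 is named for the striatum. In whole hippocampus, fewer cells of a type and less RNA per cell cannot be told apart.

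TonEBP binds DNA at sites built around the letters TGGAAA, so the 250 bases before the transcription start were read for that word on both strands (TTTCCA on the other strand). RefSeq windows of GRCm38.p6 matched 6 of the 8 members by symbol (all except Rgs14 and Map3k15), with 8 windows in all. The word was present in the windows of 2 members, Pcp4 and Cacng5. Of all 32851 windows of this length, 18.6% held it. The window of Pcp4 (chr16:96467356-96467605, plus strand) had it once, beginning 58 bases before the start. The upstream one of 2 windows of Cacng5 (chr11:107915056-107915305, minus strand) had it once, 190 bases before the start, and the other window of this gene did not hold it. Pcp4l1, which encodes a close relative of the Pcp4 protein, belongs to the list of Pcp4 partners below, and its window was added after its values were seen. This window (chr1:171196269-171196518, minus strand) held the word once, 109 bases before the start. The 3 windows are shown 5′ to 3′, with the searched word in capitals, because they held that word. A match says nothing on whether TonEBP binds there.
Pcp4: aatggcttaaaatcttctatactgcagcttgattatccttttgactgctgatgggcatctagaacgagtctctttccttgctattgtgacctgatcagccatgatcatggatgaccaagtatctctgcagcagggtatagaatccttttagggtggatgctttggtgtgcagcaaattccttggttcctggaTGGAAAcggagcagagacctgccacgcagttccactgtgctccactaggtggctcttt
Cacng5: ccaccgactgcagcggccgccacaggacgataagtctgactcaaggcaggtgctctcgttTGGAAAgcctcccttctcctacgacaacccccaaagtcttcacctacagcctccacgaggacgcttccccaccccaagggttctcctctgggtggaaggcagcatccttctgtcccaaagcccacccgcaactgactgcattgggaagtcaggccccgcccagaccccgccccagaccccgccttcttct
Pcp4l1: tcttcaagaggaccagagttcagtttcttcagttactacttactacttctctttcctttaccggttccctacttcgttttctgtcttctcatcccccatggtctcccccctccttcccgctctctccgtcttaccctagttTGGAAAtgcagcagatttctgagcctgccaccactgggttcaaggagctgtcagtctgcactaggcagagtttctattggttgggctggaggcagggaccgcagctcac

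Levels are given in FPKM, fragments scaled by transcript length and library depth, on a reading of the deposited log2 values as log2(FPKM + 1), which no header or label states. Differences are HET minus WT on that deposited log2 scale, which understates differences of genes at low levels. From the spacing of low values, the libraries held an estimated 8000000 to 12650000 fragments each, and a single fragment on a 1 kb transcript then counts for 0.0791 to 0.125 FPKM. Nfat5 itself read 10.5, 8.39 and 9.72 FPKM in the wild-type libraries and 8.25, 9.31 and 8.42 FPKM in the TonEBP+/- libraries. These ranges overlapped, so the transcript did not separate the genotypes, and every direction rests on the labels. In limma, 0 of the 13122 genes that reached 1 FPKM in 3 or more libraries passed an adjusted p of 0.05, which is 0% of those tested, and 484 (3.69%) had an unadjusted p under 0.05. The libraries differed in markers of neighbouring tissue: summed thalamus and habenula markers ran from 258 to 300 FPKM in wild type and stood at 296 FPKM in HET 1 but at 158 FPKM in HET 2 and 152 FPKM in HET 3. Summed choroid plexus markers ran from 449 to 3502 FPKM in wild type and from 195 to 4293 FPKM in the TonEBP+/- libraries.

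Pcp4 stood far above the other CA2 markers in every library and lay lower in the TonEBP+/- libraries, whereas most of the other markers differed little. Pcp4 (chromosome 16, 96467606 to 96525793, GRCm38, protein coding, plus strand) encodes a small protein with an IQ motif that binds calmodulin and speeds its exchange of calcium. Its level was 208, 235 and 171 FPKM in the wild-type libraries 1 to 3 and 162, 109 and 128 FPKM in the TonEBP+/- libraries 1 to 3, the order kept for all genes below. All 3 TonEBP+/- libraries lay below all 3 wild-type libraries, and HET 1 was only just below WT 3. Wild-type libraries averaged 204 ± 32.1 FPKM and TonEBP+/- libraries 133 ± 26.9 FPKM (SD, n = 3 each), a ratio of 0.649 and a log2 difference of -0.63 (SE 0.162). This difference is the value for which Pcp4 was chosen and is given as a description, with no test. Among the 13122 genes, 19 had a lower difference. With single libraries left out the difference ran from -0.78 (without HET 1) to -0.49 (without HET 2). Igsf5, a gene that overlaps Pcp4 on the same strand, was at 0.134 to 0.965 FPKM in the 6 libraries.

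**Figure D1:**
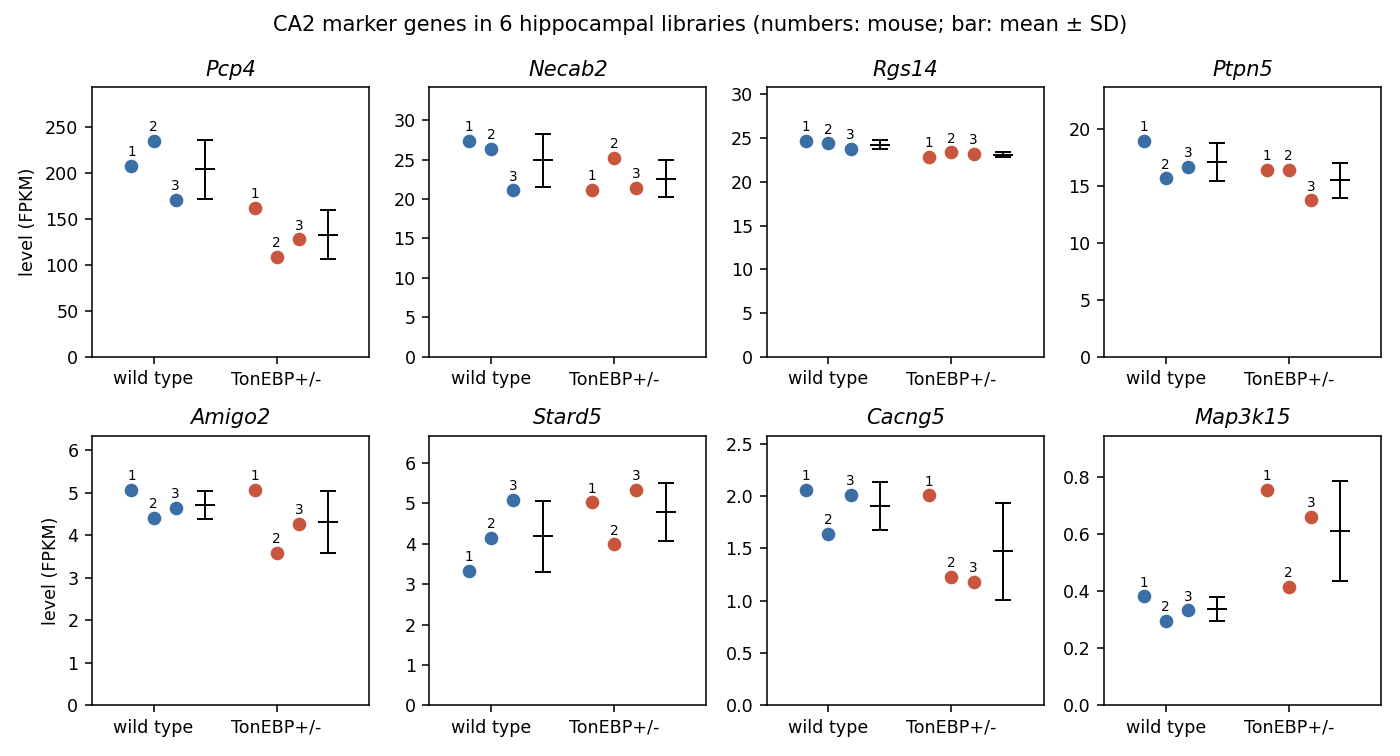
Level of each of the 8 CA2 markers in FPKM (vertical axes start at 0 and differ between panels) in the 3 wild-type and 3 TonEBP+/- libraries; digits are the mouse numbers and the bar beside the points is the mean ± SD. The Pcp4 points run from 171 to 235 FPKM in wild type and from 109 to 162 FPKM in TonEBP+/-, while the Rgs14 points all lie between 22.8 and 24.6 FPKM.

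Rgs14, the regulator of G-protein signalling most often used to outline CA2, was nearly constant. The gene (chromosome 13, 55369732 to 55384687, plus strand) read 24.6, 24.4 and 23.7 FPKM in the wild-type libraries and 22.8, 23.4 and 23.2 FPKM in the TonEBP+/- ones. The groups did not overlap but lay close together, with a ratio of 0.953. Its log2 difference of -0.07 (SE 0.0639, 95% interval -0.21 to 0.08) did not pass (limma adjusted p = 1.00). The lower end of that interval lies above the -0.63 of Pcp4, the value by which Pcp4 was chosen. The lower ends given below for Necab2, Ptpn5, Amigo2 and Stard5 also lie above it. The coefficient of variation of Rgs14 was 1.96% in wild type and 1.14% in TonEBP+/-, against 15.7% and 20.2% for Pcp4. The ratio of Pcp4 to Rgs14 was 8.43, 9.63 and 7.20 in the wild-type libraries and 7.09, 4.66 and 5.52 in the TonEBP+/- libraries. HET 1 was therefore close to WT 3 in this ratio, and HET 2 and HET 3 were lower.

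The other signalling markers overlapped between genotypes. Necab2 (chromosome 8, 119446719 to 119472640, plus strand), which encodes an EF-hand calcium-binding protein, read 27.4, 26.3 and 21.1 FPKM in the wild-type libraries and 21.2, 25.2 and 21.4 FPKM in the TonEBP+/- ones. WT 3 was the lowest of the 6 libraries and HET 2 lay among the higher ones, so this gene was not low where Pcp4 was lowest. The log2 difference was -0.13 (SE 0.108, 95% interval -0.37 to 0.11, limma adjusted p = 1.00). This value ran from -0.24 without WT 3 to -0.06 without WT 1. Ptpn5 (chromosome 7, 47077795 to 47133684, minus strand), the gene for the tyrosine phosphatase STEP, read 18.9, 15.6 and 16.7 FPKM in the wild-type libraries and 16.4, 16.4 and 13.7 FPKM in the TonEBP+/- ones. Only HET 3 lay below the wild-type range. Its log2 difference was -0.13 (SE 0.0964, 95% interval -0.35 to 0.08, limma adjusted p = 1.00). It became -0.19 when WT 2 was left out and -0.05 when HET 3 was.

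The membrane proteins of the list had their low values in HET 2 and HET 3. Amigo2 (chromosome 15, 97244125 to 97247287, minus strand) encodes a cell adhesion protein with leucine-rich repeats. It read 5.07, 4.42 and 4.65 FPKM in the wild-type libraries and 5.07, 3.60 and 4.28 FPKM in the TonEBP+/- ones, so that HET 1 was level with the highest wild-type library and the other TonEBP+/- libraries lay below all wild-type ones. The log2 difference was -0.11 (SE 0.118, 95% interval -0.38 to 0.15, limma adjusted p = 1.00). It was -0.21 without HET 1 and -0.01 without HET 2, so its size rests on single libraries. Cacng5 (chromosome 11, 107874605 to 107915055, minus strand) encodes TARP gamma-5, an auxiliary subunit of AMPA receptors. It read 2.06, 1.64 and 2.01 FPKM in the wild-type libraries and 2.01, 1.23 and 1.18 FPKM in the TonEBP+/- ones. HET 1 again lay within the wild-type range, and HET 2 and HET 3 below it. The log2 difference of -0.25 (SE 0.151) was known when the list was drawn up and is given with no test, and with an offset of 0.1 in place of 1 it was -0.38. Leaving out single libraries gave -0.39 (without HET 1) to -0.16 (without HET 3). At about 39.5 to 82.8 fragments per library, the values of this gene rest on few reads.

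The remaining members lay higher in TonEBP+/- libraries. Stard5 (chromosome 7, 83631959 to 83653127, plus strand), which encodes a lipid transfer protein with a START domain, read 3.33, 4.15 and 5.09 FPKM in the wild-type libraries and 5.03, 3.98 and 5.34 FPKM in the TonEBP+/- ones. The ranges overlapped broadly, and the log2 difference was 0.16 (SE 0.143, 95% interval -0.16 to 0.48, limma adjusted p = 1.00). It was 0.04 without WT 1 and 0.28 without WT 3. Map3k15 (chromosome X, 159988433 to 160123351, plus strand) encodes ASK3, a kinase whose activity responds to osmotic stress. It read 0.382, 0.297 and 0.333 FPKM in the wild-type libraries and 0.755, 0.416 and 0.660 FPKM in the TonEBP+/- ones, and every TonEBP+/- library lay above every wild-type library. The means were 0.337 ± 0.0426 and 0.611 ± 0.175 FPKM (SD, n = 3 each). The gene was under the filter of 1 FPKM, and in a fit of all 20084 genes with a value it did not pass (log2 difference 0.26, SE 0.104, 95% interval 0.02 to 0.50, limma unadjusted p = 0.0350, adjusted p = 0.999). The difference was 0.20 without HET 1 and 0.35 without HET 2. These levels correspond to an estimated 11.2 to 36.3 fragments per library, and with an offset of 0.1 the log2 difference was 0.67. Among the 16462 genes that reached 0.1 FPKM in 3 or more libraries, 4.32% also had all TonEBP+/- libraries above all wild-type ones.

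Both of these genes overlap neighbours on the opposite strand. The library kit keeps strand, but nothing in the sources used here says whether the counting used it. Stard5 overlaps Il16 (4.37 to 6.49 FPKM in the 6 libraries), which is at a like level, and Map3k15 overlaps the end of Pdha1 (113 to 123 FPKM), which is far above it. The values of Stard5 and Map3k15 are therefore uncertain.

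Of the 8 members, 6 lay lower and 2 higher in TonEBP+/- libraries, and the median difference was -0.12 (-0.06 without WT 1), against -0.00 over all 13122 genes, of which 50.0% lay lower. The filter passed 7 of the 8. All TonEBP+/- libraries lay below all wild-type ones in 2 of these 7 (Pcp4 and Rgs14), a pattern that 4.39% of the genes tested showed, and nothing is read from this count because the same contrast entered the choice of the list. Of the 6 members with a test of their own, limma passed 0. An unadjusted limma p under 0.05 was found for 1 of these 6, Map3k15, in the fit without the filter, and for 0 of the 5 above the filter. The share of all 20084 genes under 0.05 in the fit without the filter was not taken. Nothing is therefore read from the count of 1. Without Pcp4 the median of the other 7 was -0.11. The other 7 summed to 81.7, 76.9 and 73.6 FPKM in the wild-type libraries and to 73.2, 74.2 and 69.7 FPKM in the TonEBP+/- libraries, ranges that overlapped.

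In level per transcript length, the wild-type order was Pcp4, then Necab2 and Rgs14, then Ptpn5, then Amigo2 and Stard5, then Cacng5 and last Map3k15. Necab2 (24.9 ± 3.36 FPKM) and Rgs14 (24.3 ± 0.476 FPKM) did not differ beyond their spread, nor did Amigo2 (4.71 ± 0.331 FPKM) and Stard5 (4.19 ± 0.880 FPKM; SD, n = 3 each). In TonEBP+/- both of these pairs stood in the other order, again within their spread (22.6 ± 2.29 FPKM for Necab2, 23.1 ± 0.262 FPKM for Rgs14, 4.32 ± 0.740 FPKM for Amigo2 and 4.78 ± 0.710 FPKM for Stard5). Pcp4 made up 69.9% to 75.3% of the summed level of the 8 genes in wild type and 59.5% to 68.8% in TonEBP+/-.

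Further genes known from CA2, none of them among the 8, showed no common direction. Of 12 such genes, 9 passed the filter, of which 4 lay lower and 5 higher in TonEBP+/-. Limma passed 0 of them, 0 had an unadjusted p under 0.05, and the median difference was 0.05. Gpr12, an orphan G-protein-coupled receptor gene, had the smallest p and read 6.94, 5.82 and 6.06 FPKM in the wild-type libraries and 4.83, 5.73 and 5.75 FPKM in the TonEBP+/- ones. Its groups did not overlap, but here HET 1 was the low library and HET 2 and HET 3 nearly reached WT 2 (log2 difference -0.18, SE 0.102, limma adjusted p = 1.00). Ccdc3, with a wild-type mean of 3.87 ± 0.347 FPKM and a TonEBP+/- mean of 4.32 ± 0.276 FPKM (SD, n = 3 each), had a log2 difference of 0.13 and a limma adjusted p of 1.00. The mineralocorticoid receptor gene Nr3c2 (-0.11, SE 0.0896) and the growth factor gene Fgf2 (0.23, SE 0.195) followed, each given as a log2 difference and each with a limma adjusted p of 1.00. Adora1, the adenosine A1 receptor gene and the most abundant of this list, averaged 38.8 ± 1.47 FPKM in the wild-type libraries and 38.0 ± 1.99 FPKM in the TonEBP+/- ones (SD, n = 3 each). Avpr1b, the vasopressin receptor gene of CA2, was at 0 to 0.140 FPKM, which is at most a few fragments, and could not be compared at this depth. The oxytocin receptor gene Oxtr (0.801 to 1.14 FPKM) and the aggrecan gene Acan (0.314 to 0.540 FPKM), part of the perineuronal nets of CA2, were likewise below the filter.

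**Figure D2:**
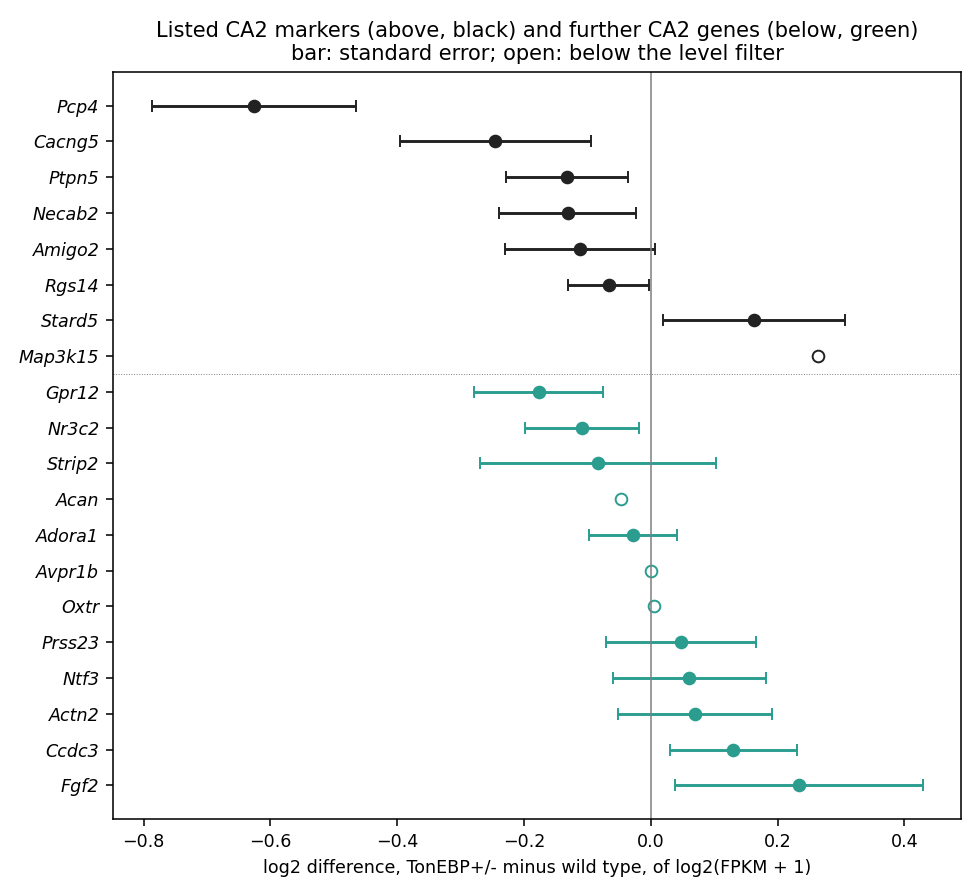
Log2 difference (TonEBP+/- minus wild type, of log2(FPKM + 1)) of the 8 listed CA2 markers in black and of 12 further CA2 genes in green; bars are the limma standard error, and open circles are genes under the filter on low levels. Pcp4 stands at -0.63, and the further CA2 genes lie between -0.18 and 0.23 on both sides of 0.

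Partners of the Pcp4 protein were compared next. The calmodulin genes Calm2 and Calm3 averaged 1465 and 763 FPKM in the wild-type libraries and 1469 and 773 FPKM in the TonEBP+/- ones, with log2 differences of 0.01 and 0.02. Of 15 genes for calmodulin, IQ-motif proteins, calmodulin kinases and calcineurin, 10 lay lower and 5 higher, with a median of -0.02. Limma passed 0, and 1 of them (Pcp4l1) had an unadjusted p under 0.05. Pcp4l1 read 61.8, 67.2 and 61.7 FPKM in the wild-type libraries and 55.3, 35.7 and 48.9 FPKM in the TonEBP+/- ones. Its libraries took the same places as in Pcp4, with WT 2 highest, HET 1 nearest to the wild type and HET 2 lowest (log2 difference -0.46, SE 0.143, limma adjusted p = 1.00). The ratio of Pcp4 to Pcp4l1 was 2.77 to 3.49 in wild type and 2.61 to 3.05 in TonEBP+/-, so the ranges overlapped. The calcineurin genes Ppp3cb (-0.16, SE 0.0856) and Ppp3ca (-0.16, SE 0.101) and the neurogranin gene Nrgn (0.08, SE 0.0750), which encodes another IQ-motif protein, had the next smallest p and did not pass.

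Partners of Rgs14 and Ptpn5, namely inhibitory G-protein subunits, the Ras to ERK cascade and receptor or kinase substrates, were 14 genes, all above the filter. Of these, 10 lay lower and 4 higher, the median difference was -0.01, limma passed 0, and 0 had an unadjusted p under 0.05. Among those with the smallest p were the GTPase gene Rap2a (-0.11, SE 0.0700), the kinase gene Ptk2b (-0.14, SE 0.0915) and the AMPA receptor gene Gria2 (0.10, SE 0.0899).

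Thalamus markers were low in the same libraries as Pcp4. This list was chosen with earlier results of these libraries known, so its counts and p-values are given as descriptions. Of 18 thalamus and habenula markers, 16 passed the filter and 15 lay lower in TonEBP+/-, with a median of -0.42. Limma passed 0, and 4 had an unadjusted p under 0.05, of which Ntng1, Slc17a6 and Shox2 lay lower. The other, the tachykinin gene Tac2, had the smallest p of the list and lay higher in TonEBP+/-, at 1.34 to 1.53 FPKM in wild type and 1.95 to 2.36 FPKM in TonEBP+/- (log2 difference 0.35, SE 0.115, limma adjusted p = 1.00). Relative to the wild-type mean, the list median was -0.04, 0.04 and -0.02 in WT 1 to WT 3, 0.08 in HET 1, -0.66 in HET 2 and -0.77 in HET 3. Its most abundant members showed the same split: Prkcd, the gene for a protein kinase C of thalamic relay neurons, read 56.5 FPKM in HET 1 and 24.4 and 25.3 FPKM in HET 2 and HET 3, against 43.0 to 54.7 FPKM in wild type. Slc17a6, the vesicular glutamate transporter gene of thalamus, was at 36.0, 22.5 and 20.5 FPKM in HET 1 to HET 3 and at 36.0 to 39.0 FPKM in wild type. Tnnt1 was at 33.0, 16.9 and 14.1 FPKM in HET 1 to HET 3 and at 23.2 to 39.8 FPKM in wild type. None of the 18 was at 0 in all libraries, although the habenula marker Pou4f1 was at most 0.162 FPKM.

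Pcp4, Amigo2 and Cacng5 were thus lowest in HET 2 and HET 3, the libraries with low thalamus markers, while Rgs14, Necab2 and Stard5 did not follow that split. With the mean of the 16 markers as a covariate, the difference was -0.38 (SE 0.158) for Pcp4 in place of -0.63, -0.02 (SE 0.162) for Cacng5 in place of -0.25, and 0.04 (SE 0.139) for Amigo2 in place of -0.11. For Rgs14 it was -0.08 (SE 0.0857) in place of -0.07, and for Ptpn5 -0.07 in place of -0.13. Necab2 (-0.19 in place of -0.13), Stard5 (0.21 in place of 0.16) and Map3k15 (0.35 in place of 0.26) moved away from 0. Only HET 1 had thalamus markers at the wild-type level together with the TonEBP+/- label. Less thalamic tissue in HET 2 and HET 3 and lower levels of these genes with genotype cannot be told apart, so the values with the covariate are descriptions. In HET 1, where the thalamic markers were not low, Pcp4 was at 162 FPKM. The wild-type libraries ran from 171 to 235 FPKM, with a mean of 204 FPKM. HET 1 lay below the lowest of them by less than the wild-type SD of 32.1 FPKM. This is 1 library, and Pcp4 was chosen for its low TonEBP+/- values. What its level in HET 1 owes to genotype was not tested.

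**Figure D3:**
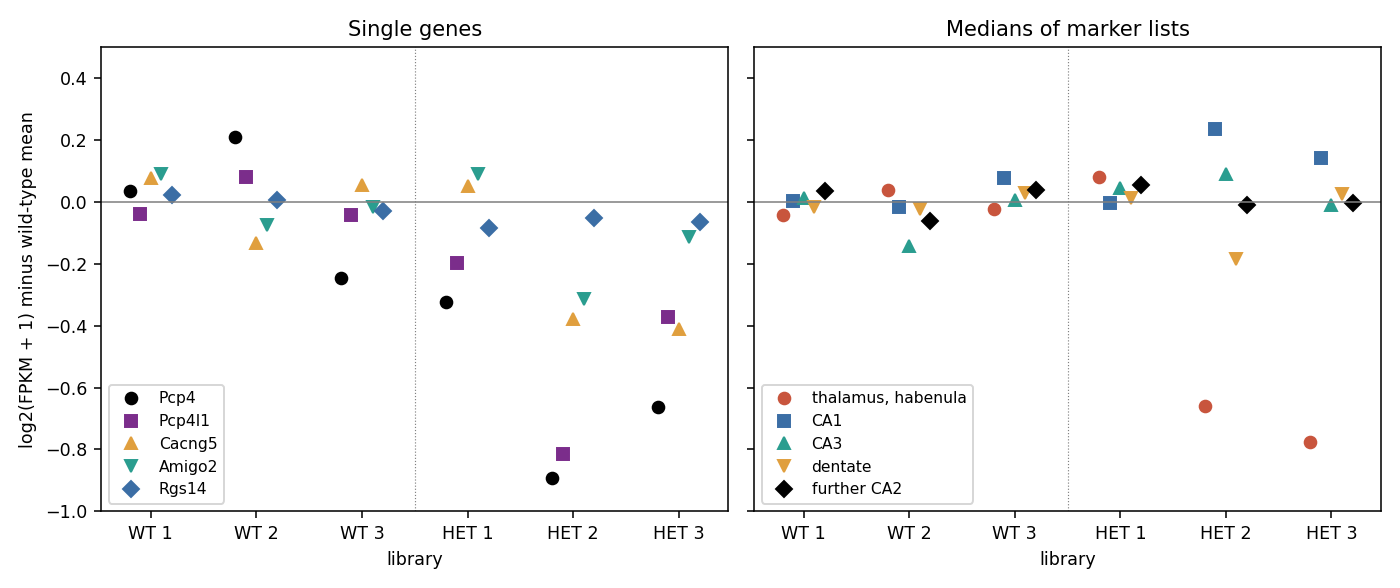
Log2(FPKM + 1) minus the wild-type mean in each library, for 5 single genes (left) and for the medians of 5 marker lists (right); points within a library are set apart sideways for legibility. Pcp4 and Pcp4l1 are lowest in HET 2 and HET 3, where the median of the thalamus and habenula markers is -0.66 and -0.77, while Rgs14 and the further CA2 genes stay near 0.

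Neighbouring fields of the hippocampus did not share the pattern of Pcp4 over all libraries. Dentate markers were, however, lowest in HET 2, as Pcp4 was. Relative to the wild-type mean, their median was 0.01, -0.18 and 0.03 in HET 1 to HET 3. The part of dentate cells in the Pcp4 values was not tested. CA1 markers lay higher in 6 of 9 (median 0.14), CA3 markers in 5 of the 8 tested (median 0.05) and dentate granule cell markers in 4 of 12 (median -0.08). Limma passed 0 genes in each, and 2, 0 and 0 of them had an unadjusted p under 0.05. The summed CA3 markers, led by Nnat, Bok and Nptx1, ran from 337 to 347 FPKM in wild type and from 322 to 381 FPKM in TonEBP+/-. The summed CA1 markers, led by Nov, Mpped1 and Dcn (also a fibroblast gene), ran from 165 to 185 and from 171 to 215 FPKM, and the summed dentate markers, led by Calb1, Stxbp6 and Trpc6, from 170 to 171 and from 153 to 171 FPKM. Markers of all 3 fields were thus present at the labelled site of dissection. Striatum markers, listed because Pcp4 and Ptpn5 are striatal genes too, summed to 74.1 to 93.9 FPKM in wild type and to 76.6 to 91.1 FPKM in TonEBP+/-, with 8 of the 9 tested lower and a median of -0.06. Its defining receptor genes were low, with Drd1 at 1.18 to 1.87 FPKM and Drd2 at 0.0748 to 0.731 FPKM. Cortex and subiculum markers (5 of 11 lower, median 0.11, 122 to 133 against 124 to 147 FPKM summed) and interneuron markers (6 of 10 lower, median -0.04, 581 to 630 against 549 to 585 FPKM) had 0 members past limma, and 2 and 1 with an unadjusted p under 0.05.

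Non-neuronal content was compared in the same way, and limma passed 0 genes in each list. Oligodendrocyte markers were lower in 8 of 8 (median -0.06), with sums of 3865 to 4083 FPKM in wild type and 3111 (HET 2) to 4366 FPKM (HET 1) in TonEBP+/-. Astrocyte markers (5 of 8 higher, median 0.02), microglia markers (5 of 8 higher, median 0.09), endothelial markers (3 of 8 higher, median -0.02) and meningeal markers (7 of the 7 tested higher, median 0.20) had 0, 1, 0 and 0 members with an unadjusted p under 0.05. Choroid plexus markers (7 of 10 higher, median 0.09, 0 with an unadjusted p under 0.05) had their lowest sum in HET 2 and their highest in HET 3, so they did not take the order of Pcp4. The part of these lists in the Pcp4 values was not tested.

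Genes whose pattern over the 6 libraries was most like that of Pcp4 were found by the root mean square difference between centred log2 values, where 0 is identity and a gene with no variation would be at 0.38. The nearest were Pcbd1 (0.109), Xrcc6bp1 (0.119), Plcb4 (0.146), Pcp4l1 (0.147), Medag (0.151) and Vav3 (0.156). All 6 had lower values in HET 2 and HET 3 than in any wild-type library, which follows from choosing them by likeness to Pcp4. Plcb4, a phospholipase C gene, read 32.6, 37.1 and 34.5 FPKM in the wild-type libraries and 31.9, 19.7 and 21.2 FPKM in the TonEBP+/- ones. The other CA2 markers were farther away: Cacng5 at 0.278, Amigo2 at 0.303, Ptpn5 at 0.345, Necab2 at 0.348, Rgs14 at 0.351, Map3k15 at 0.475 and Stard5 at 0.481. The last 2 were farther from Pcp4 than a gene with no variation would be.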

How the data were processed

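Libraries from hippocampal total RNA kept strand (NEBNext Ultra II Directional), per the labels' protocols, and TopHat with mm10 was used, per the submitters' processing notes. The sources used here name no annotation or quantifier. The scale of the deposited values, log2, was read from the values: none was negative, and low values sat on steps set by transcript length (68.0% to 72.7% of genes in the range of 0.5 to 3.5 steps within 0.15 of a whole step for WT 1 to WT 3 and 67.4% to 71.4% for HET 1 to HET 3, where even spacing gives 30%). Depths are estimates from these steps and GENCODE vM21 transcript lengths. For each library, of a range of depths, the one with the largest such share was kept. The shares are therefore maxima, and a comparison with 30% overstates how well the steps fit.

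The 13122 genes that reached 1 FPKM in 3 or more libraries entered a fit of genotype alone in limma 3.58.1 (R 4.3.3, eBayes, both its trend and robust settings on), and p-values were adjusted over all of them by Benjamini-Hochberg, with 0.05 as threshold. The fit was tested on simulated data for this comparison with 13122 genes: it found 7.40% of log2 changes of 0.3, 39.5% of those of 0.5, 72.4% of those of 0.75 and 86.3% of those of 1 (200 genes changed, 20 draws). The simulated noise was independent between genes, with the SD of each gene taken from these libraries. Shifts shared by many genes, such as those of the thalamus and choroid plexus markers, are therefore not in these rates. Positions are from GENCODE vM21 (GRCm38). Figures used matplotlib 3.10.9 in Python 3.11.15.

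The members, the 17 gene lists and the alternatives were chosen with earlier results of these data known. Named are all members, the 4 genes with the smallest p of the further CA2 and partner lists, the most abundant members of the lists of regions described, and the 6 genes nearest to Pcp4 (without predicted models and small RNAs); other genes named were picked after their values were seen. Single values of 2 genes of the partner lists are not reported here.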

Additional observations from a re-analysis of the deposited data

How the results depend on the processing

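The differences of the CA2 markers were recomputed under 14 alternatives: scaling to common quantiles or to a common median, dropping the filter, raising it to a mean of 5 FPKM, switching off the robust setting, an offset of 0.1, a replicate block, the thalamus covariate, and each library left out in turn. The Pcp4 difference ran from -0.78 to -0.38 over the 14. Its sign was fixed with a library left out, because all TonEBP+/- values lay below all wild-type ones. The filter, the robust setting and the replicate block leave this difference unchanged by construction. The sign of Pcp4 under these alternatives is therefore no check on its difference. Limma passed 0 of the markers tested in each alternative. These were 5 in 13 of the alternatives, and Rgs14, Necab2 and Ptpn5 with the filter at a mean of 5 FPKM, which removed Amigo2 and Stard5; Map3k15 was tested without the filter. The median of the 8 ran from -0.13 to -0.06 with a library left out and from -0.14 to -0.05 otherwise, with the ends nearest 0 reached without WT 1 and with the thalamus covariate. Amigo2 changed sign with the thalamus covariate (0.0352), where Cacng5 was at -0.02; the offset of 0.1 moved Map3k15 to 0.67. The number of genes past the threshold over the whole table was 0 to 8 with a library left out: 8 without HET 1, 1 each without WT 1, WT 2 or HET 3, and 0 without WT 3 or HET 2. The 8 were Adarb1, Inadl, Plcb4, Plekhg1, Prkcd, Scn4b, Shox2 and Slc17a6. Of these, Plekhg1, Prkcd, Shox2 and Slc17a6 are on the thalamus list, and Plcb4 is among the genes nearest to Pcp4. The labels do not say whether the replicate numbers pair the mice. Same-numbered libraries deviated in opposite directions (r of -0.21, -0.25 and -0.16 across genes). These r values cannot decide on pairing, because centring within each genotype makes the values of a library offset one another. The fit with the replicate block passed 0 genes. It cannot change the Pcp4 difference of -0.63, because each block holds 1 library of each genotype. With 3 libraries per genotype and noise independent between genes, a simulated log2 change of 0.5 was found in 39.5% of cases. Map3k15 and Cacng5 are further limited by few fragments.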
